A study of Homo sapiens with 4 samples.

Results

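The genes described here encode the constitutive proteasome: the 20S core, the 19S regulatory particle, the alternative caps, the inhibitor and the dedicated assembly chaperones. They were taken by symbol, as every gene named PSMA to PSMG with a number, leaving out PSMB8, PSMB9, PSMB10, PSME1 and PSME2, which belong to the interferon-inducible immunoproteasome and its PA28 cap. The rule found 42 of the 29437 genes listed: 7 genes of the 20S alpha ring, 8 of the 20S beta ring, 6 ATPases and 11 non-ATPases of the 19S particle, 3 alternative caps or inhibitors, and 7 assembly chaperones. The cells were CAL27, an established human line from a squamous carcinoma of the tongue. Both groups received lentivirus: the negative control (2 libraries) and CCL20 overexpression (2 libraries), in which the vector carried the chemokine CCL20. Polyadenylated RNA was taken after 48 hours in all 4 libraries. The labels do not say whether libraries of a group came from separate cultures, so p-values measure only the spread between these libraries, which may be technical.

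The proteasome degrades proteins that carry ubiquitin chains. Its 20S core is a barrel of stacked rings: the outer rings of alpha subunits form the gate, and the inner rings of beta subunits hold the protease sites, of which PSMB6, PSMB7 and PSMB5 carry the caspase-like, trypsin-like and chymotrypsin-like activities. The 19S particle binds ubiquitinated substrates, removes the ubiquitin and unfolds the protein with a ring of ATPases (PSMC genes); its non-ATPase subunits (most PSMD genes) form the scaffold of the base and the lid. Chaperones (PSMG1 to PSMG4 for the core, PSMD5, PSMD9 and PSMD10 for the 19S base) assist assembly and leave the finished particle. When proteasome activity is limiting, the transcription factor NFE2L1 raises subunit genes together through antioxidant response elements in their promoters.

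The libraries held 13681862 and 17860695 reads in the negative control and 15355030 and 16870325 with overexpression. CCL20 itself was listed at 8.62 and 7.10 FPKM (fragments scaled by gene length and by the library's counted reads) in the control and at 15.2 and 11.3 FPKM with overexpression, a log2 fold change of 0.95 (SE 0.21, edgeR adjusted p = 0.0143). The libraries also differed in the kind of transcript they held: the average read came from a gene with 6226 and 6130 nt of exon in the control, and with 5313 and 5013 nt with overexpression. Results are therefore given on the standard scale and after a correction that removes from each library the trend of counts with mRNA length. With that correction the CCL20 difference was 0.06 (SE 0.24, edgeR adjusted p = 0.916). Of the squamous epithelial markers, 7 of 8 were at 1 FPKM or more, and their summed level was 899 to 969 FPKM in the control and 959 to 1220 FPKM with overexpression. Summed fibroblast markers lay between 2.73 and 5.47 FPKM, endothelial markers between 5.10 and 8.81 FPKM, both lower in each overexpression library than in either control library, and leukocyte markers between 0.137 and 0.263 FPKM. Of these lists, 1 of 5 fibroblast markers (COL1A1, mean 2.72 FPKM) and 1 of 4 endothelial markers (CDH5, mean 6.75 FPKM) reached 1 FPKM. Of the 3 leukocyte markers listed, 0 did. The part of these markers in the results was not tested.

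Proteasome promoters were read first for the letters through which NFE2L1 acts, since several members below carry them. In the 250 bases before the RefSeq transcription start (GRCh38.p14), 36 of the 42 members had an entry, and 10 of the 36 (27.8%) held the antioxidant response element core TGACNNNGC on either strand, against 13.2% of 27305 genes. For the core and 19S particle, 5 of these members are printed with 20 bases on each side, the element in capitals and each sequence 5′ to 3′ on the gene's own strand. They show that the element sits at different distances and in different surroundings in genes of different rings.
PSMA4, alpha ring, chr15:78540640-78540688, plus strand: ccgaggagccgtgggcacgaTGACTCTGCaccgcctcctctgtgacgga
PSMB3, beta ring, chr17:38752617-38752665, plus strand: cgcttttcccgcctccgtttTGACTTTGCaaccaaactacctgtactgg
PSMC5, ATPase, chr17:63827644-63827692, plus strand: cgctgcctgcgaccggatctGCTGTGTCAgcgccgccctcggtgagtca
PSMD12, lid, chr17:67366714-67366762, minus strand: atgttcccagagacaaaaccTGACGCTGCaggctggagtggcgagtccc
PSMD3, lid, chr17:39980750-39980798, plus strand: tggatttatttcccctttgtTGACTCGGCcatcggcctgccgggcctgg
The element begins 126 bases before the start in PSMA4, 104 in PSMB3, 57 in PSMC5, 165 in PSMD12 and 37 in PSMD3. PSMA4 has 3 annotated promoters in the table and PSMC5 has 2, and in each gene only 1 of them holds the element. In PSMC5 it lies on the opposite strand, so the capitals show its reverse complement. By class, 1 of 6 alpha ring genes, 1 of 5 beta ring genes, 1 of 6 ATPases, 2 of 10 non-ATPases, 1 of 3 caps and 4 of 6 assembly chaperones held it. PSMA7, PSMB1, PSMB6, PSMB7, PSMD4 and PSMG3 had no entry and are not in these counts. The ETS site CCGGAAG, searched the same way, was in 10 of 36 members (27.8%) against 10.2% of genes, and in none of the 11 core genes with an entry. CCAAT was in 18 of 36 (50.0%) against 37.0%, and TATAAA in 4 of 36 (11.1%) against 13% of genes. Matches of different motifs were allowed to overlap, and a match of letters does not show that a factor bound there.

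Transcripts of the core and of several 19S subunits made up a larger share of the overexpression libraries. All 42 members together took 0.780% and 0.801% of reads in the control and 1.06% and 1.10% with overexpression. The beta ring had the largest gain in share, from 0.199% and 0.198% to 0.342% and 0.367%, and the alpha ring went from 0.0914% and 0.0927% to 0.159% and 0.147%. ATPases took 0.0997% and 0.106% in the control and 0.144% and 0.154% with overexpression, while non-ATPases stood closer together, at 0.288% and 0.302% against 0.316% and 0.334%. The caps and inhibitor were the only class with the smaller share in both overexpression libraries, 0.0429% and 0.0450% against 0.0558% and 0.0581%. In bulk RNA, more transcript per cell and more cells with the transcript cannot be told apart.

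Of the 39 members with a mean FPKM of at least 1, which were the ones tested, 25 were higher and 1 was lower with overexpression by edgeR's quasi-likelihood test (adjusted p under 0.05), and 13 did not pass. Over all 12168 genes tested, 16.5% were called higher and 15.7% lower. The median log2 fold change of the members was 0.75, against 0.00 over all genes tested, and 35 of the 39 had a value above 0, as had 50.1% of all genes. These counts rested on the control pair: without control replicate 1 only 2 members passed and without control replicate 2 only 4, while 33 and 32 passed without overexpression replicate 1 or 2. Where a group keeps 1 library, its spread is assumed to be that of the other group. The log2 fold change itself changed sign in 2 and 0 members without control replicate 1 or 2. Without overexpression replicate 1 or 2 it did so in 1 and 4. On FPKM values, both overexpression libraries lay above both control libraries in 28 tested members and below them in 6. The groups overlapped in 5. Over all genes tested, 25.8% lay above and 46.9% below.

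With the mRNA length correction, 5 members were higher and 1 was lower, against 3.63% of 10571 coding genes called higher and 3.19% lower. The 5 were PSMA4 and PSMA5 of the alpha ring, PSMB2 of the beta ring, the ATPase PSMC2 and the lid subunit PSMD12; the 1 lower was PSME3, a nuclear cap. The median of the 39 members was then 0.28, against 0.03 over all coding genes tested, and 32 of 39 members had a value above 0, as had 52.8% of coding genes. Of the 6 calls, 4 were also made without the correction. None of the 6 passed without control replicate 1 or without control replicate 2, when 0 members passed, and 23 and 21 members passed without overexpression replicate 1 or 2. In all, 6.82% of coding genes passed with this correction. When gene span and GC content were added to mRNA length, an alternative chosen after the data were seen, 18 members were higher and 2 lower, where 13.9% of coding genes were higher and 11.1% lower. When the longest coding transcript gave the length, also chosen after the data were seen, 6 members were higher and 0 lower, where 4.30% of coding genes were higher and 2.87% lower.

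**Figure D1:**
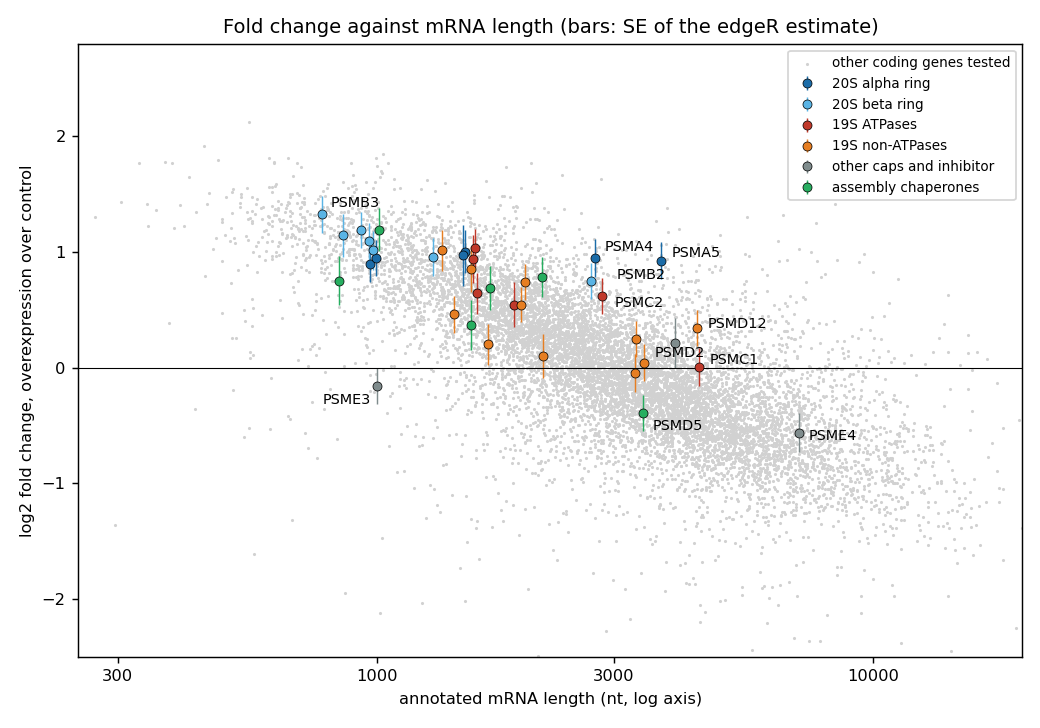
Log2 fold change (overexpression over control, without length correction) against annotated mRNA length in nt on a log axis; coloured points are the 39 tested members by class with bars for the SE, and grey points are the other coding genes tested. Members under 2000 nt lie mostly above those that are longer. PSMA4 and PSMA5 lie high for the lengths used, which for PSMA4 is the median of its principal transcripts (2752.5 nt).

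The size of a member's difference followed the length of its mRNA. Log2 fold change and mRNA length had a Spearman correlation of −0.697 over the 39 members and of −0.734 over all 10571 coding genes; these are descriptions across genes that share the same 4 libraries. Members with an mRNA under 2000 nt numbered 25 and had a median of 0.94, with 20 called higher. The 14 longer members had a median of 0.23, with 5 higher and 1 lower. After the correction the medians were 0.24 and 0.43. The length order also runs along the structure of the particle: beta ring mRNAs had a median of 964 nt, alpha ring 1496 nt, ATPases 1740 nt, non-ATPases 1991 nt, and caps 3988 nt.

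In the alpha ring, which opens and closes the gate to the barrel, all 6 tested genes were higher without the correction, by log2 0.90 to 1.004. PSMA7, the alpha subunit with the highest level, was at 231 and 245 FPKM in the control and 394 and 404 FPKM with overexpression. Both overexpression libraries stood well above both controls, and the log2 fold change was 0.95 (SE 0.16, edgeR adjusted p = 0.00572). PSMA1 had the largest difference, from 4.36 and 4.70 FPKM to 8.40 and 7.40 FPKM, a log2 fold change of 1.004 (SE 0.18, edgeR adjusted p = 0.00750). PSMA3 had the smallest, from 47.1 and 50.0 FPKM to 83.4 and 73.8 FPKM (log2 0.90, SE 0.16, edgeR adjusted p = 0.00655). These 3 did not pass with the mRNA length correction, with log2 values of 0.12 for PSMA7, 0.44 for PSMA1 and 0.07 for PSMA3. Over the 6 tested alpha genes, 2 were called higher with that correction and 2 with the longest coding transcript. With span and GC added 3 were higher, and with exonic length in place of mRNA length 5 were.

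Of the 2 alpha subunits that passed with the correction, PSMA5 has a long principal transcript, and PSMA4 has a long and a short one. PSMA5 (chr1:109399031-109426427, minus strand) was at 24.3 and 21.4 FPKM in the control and 39.5 and 35.9 FPKM with overexpression. The groups were apart, with a log2 fold change of 0.93 (SE 0.16, edgeR adjusted p = 0.00649) that became 1.14 (SE 0.15, edgeR adjusted p = 0.00975) with the correction, for an mRNA of 3729 nt. Its other annotated coding transcript has 1504 nt, and no correction was made with that length. PSMA4 (chr15:78540405-78552419, plus strand) was at 27.9 and 27.7 FPKM in the control and 52.0 and 41.5 FPKM with overexpression. Its log2 fold change was 0.95 (SE 0.16, edgeR adjusted p = 0.00638) without and 0.94 (SE 0.16, edgeR adjusted p = 0.0157) with the correction. PSMA4 has principal transcripts of 1094 and 4411 nt, and the correction used their median, 2752.5 nt. With the shorter one as its length, the difference was 0.26 (edgeR adjusted p = 0.385).

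PSMA6, the remaining listed alpha subunit, did not reach the filter on low values. It was listed at 0.483 and 0.353 FPKM in the control and 0.220 and 0.374 FPKM with overexpression, on 22 to 43 reads, and the groups overlapped. An alpha subunit belongs to every core particle, yet PSMA6 lay at 2.26 on a scale of reads per mRNA length and library depth (RPKM on the principal mRNA) where PSMA7 lay at 560. In GENCODE 29, 81.0% of the principal PSMA6 mRNA is shared with exons of AL121594.1. PSMA2 and PSMA1, at 8.11 and 13.6 on the same scale, are covered by other genes over 54.1% and 53.2%. Overlap on the member's own strand was 81.0% for PSMA6, 52.5% for PSMA2 and 53.2% for PSMA1. The part of these overlaps in the low counts was not tested.

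**Figure D2:**
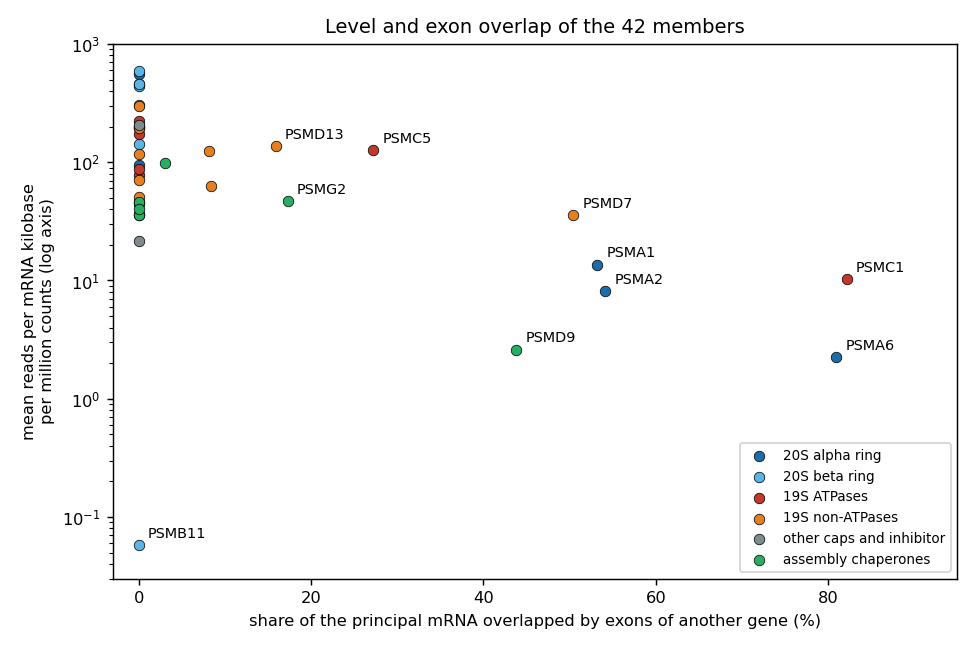
Level of each member (RPKM on the principal mRNA, mean of 4 libraries, log axis) against the percentage of its principal mRNA that exons of other genes overlap; points are genes, coloured by class. Exons on either strand count as overlap. PSMA6, PSMC1, PSMA2 and PSMA1, more than 50% covered, lie between 2.26 and 13.6, and PSMD7, also more than 50% covered, lies at 35.5. PSMB11 has no overlap and lies lowest, at 0.0578, and PSMB7, the highest, lies at 595.

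The beta ring, which holds the protease sites, had the highest median of any class without the correction, with all 7 tested genes higher (log2 0.75 to 1.33, median 1.09). With the correction its median was 0.28, below the alpha ring at 0.43 and the ATPases at 0.37; non-ATPases were at 0.21, caps at 0.05 and chaperones at 0.03. PSMB3, a structural beta subunit with an mRNA of 773 nt, was at 181.20 and 180.98 FPKM in the control and 385.78 and 400.75 FPKM with overexpression. This 2.51-fold rise (log2 1.33, SE 0.16, edgeR adjusted p = 0.00433) was the largest among the members, and the 2 libraries of each group nearly coincided. With the length correction it was 0.40 (edgeR adjusted p = 0.133). PSMB1, another structural subunit, was at 126.09 and 125.63 FPKM in the control and 250.37 and 247.74 FPKM with overexpression, a 2.28-fold rise (edgeR adjusted p = 0.00433) and 0.34 on the log2 scale with the correction (edgeR adjusted p = 0.202). Over the 7 tested beta genes, 1 was called higher with the mRNA length correction and 1 with the longest coding transcript. With span and GC added 5 were higher, and with exonic length in place of mRNA length 6 were.

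The 3 catalytic subunits all rose on the standard scale. PSMB7, the trypsin-like subunit and the most abundant member per kilobase, was at 239.6 and 235.4 FPKM in the control and 391.7 and 438.3 FPKM with overexpression (log2 1.01, SE 0.16, edgeR adjusted p = 0.00552). PSMB6, the caspase-like subunit, went from 117 and 129 FPKM to 213 and 258 FPKM, a 2.21-fold rise (edgeR adjusted p = 0.00548). PSMB5, the chymotrypsin-like subunit and the main target of proteasome inhibitors, went from 77.6 and 79.7 FPKM to 127 and 136 FPKM, a 1.94-fold rise (edgeR adjusted p = 0.00629). In each, both overexpression libraries were above both controls. None of the 3 passed with the mRNA length correction, which left log2 values of 0.18, 0.24 and 0.28. With span and GC added, PSMB7 (0.35, edgeR adjusted p = 0.0369) and PSMB5 (0.34, edgeR adjusted p = 0.0264) passed. With exonic length in place of mRNA length, PSMB7 (0.55, edgeR adjusted p = 0.0406) and PSMB6 (0.67, edgeR adjusted p = 0.0300) passed. PSMB6 did not pass in the first of these (0.22), PSMB5 not in the second (0.49), and none with the longest coding transcript. PSMB11, the catalytic subunit of the thymus, had 1, 0, 0 and 7 reads in the 4 libraries; the limit that a count of 0 allows (3 reads, counting error only) is 0.0796 FPKM in control replicate 2 and 0.0926 FPKM in overexpression replicate 1.

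PSMB2 (chr1:35599544-35641844, minus strand), a structural beta subunit, had the smallest difference of its ring on the standard scale. It was the only gene of the ring to pass with the mRNA length correction. It was at 91.9 and 86.4 FPKM in the control and 126 and 133 FPKM with overexpression. Its log2 fold change was 0.75 (SE 0.16, edgeR adjusted p = 0.0117) without and 0.72 (SE 0.14, edgeR adjusted p = 0.0265) with the correction, for an mRNA of 2701 nt. PSMA5 and PSMB2 were the 2 members called higher in each of 7 fits (without correction, with 5 forms of length correction, and by DESeq2). Neither passed on the TPM scale (edgeR adjusted p = 0.0988 for PSMA5 and 0.230 for PSMB2). Neither passed without control replicate 1 (0.112 and 0.194) or without control replicate 2 (0.173 and 0.225), as edgeR adjusted p.

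**Figure D3:**
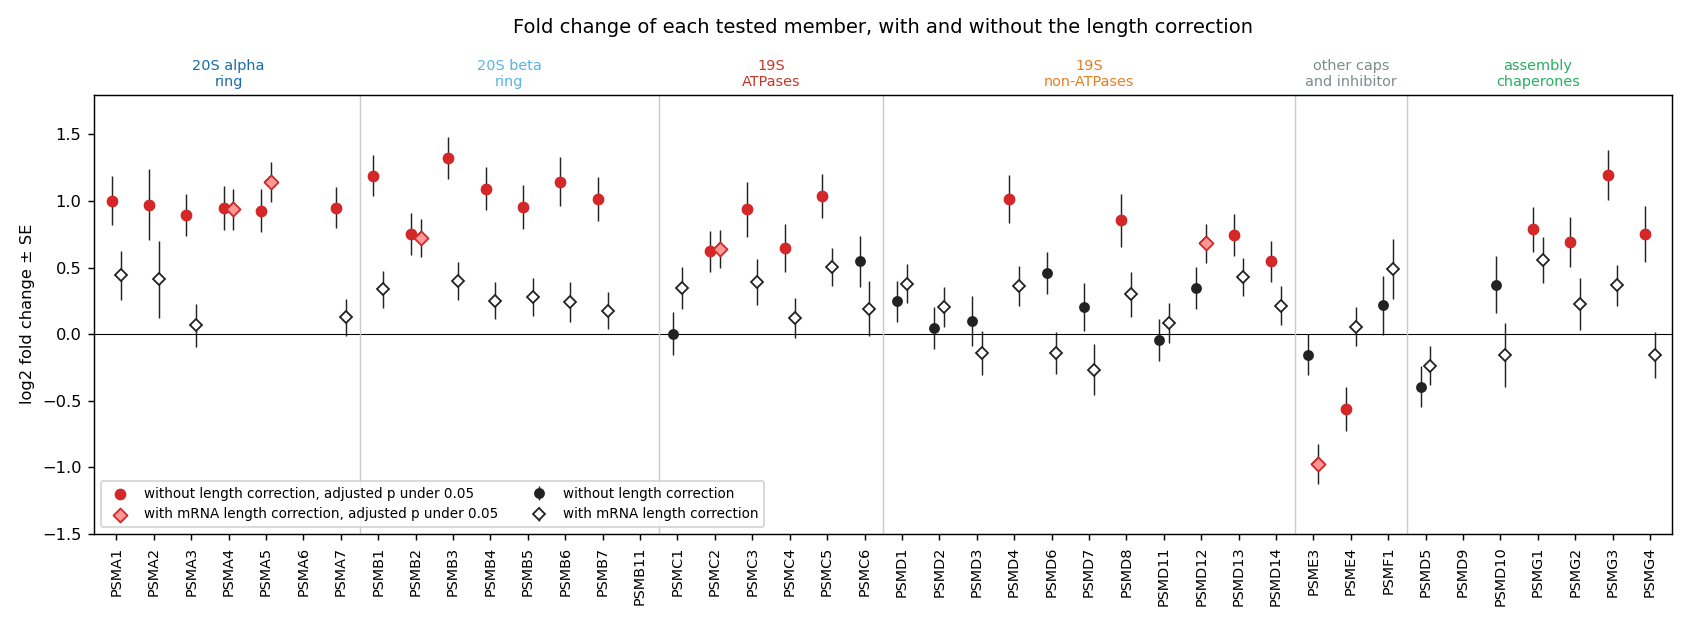
Log2 fold change with its SE for each tested member, grouped by class, without (circles) and with (diamonds) the mRNA length correction; red marks an edgeR adjusted p under 0.05, and the 3 members under the filter have no points. The beta ring lies between 0.75 and 1.33 without the correction, and 6 diamonds are red.

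The ATPase ring, which unfolds substrates, split: 4 of 6 genes were higher without the correction and 2 did not pass. PSMC5 had the largest difference, from 31.2 and 33.1 FPKM to 54.9 and 59.3 FPKM, a 2.05-fold rise (log2 1.04, SE 0.17, edgeR adjusted p = 0.00533). PSMC3, the ATPase with the highest FPKM, went from 111 and 121 FPKM to 163 and 220 FPKM (log2 0.94, SE 0.21, edgeR adjusted p = 0.0131), with the overexpression libraries further apart than the controls. With the length correction these were 0.50 (edgeR adjusted p = 0.0810) and 0.39 (edgeR adjusted p = 0.215). PSMC2 (chr7:103344254-103369395, plus strand) was at 52.6 and 55.5 FPKM in the control and 75.2 and 69.2 FPKM with overexpression. It passed on both scales, with log2 fold changes of 0.62 (SE 0.15, edgeR adjusted p = 0.0196) and 0.64 (SE 0.14, edgeR adjusted p = 0.0391).

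PSMC1 had the smallest difference of the ATPases on the standard scale and has their longest mRNA, 4448 nt. It was at 7.81 and 8.04 FPKM in the control and 7.17 and 6.63 FPKM with overexpression, and its log2 fold change on the standard scale was 0.0036 (SE 0.16, edgeR adjusted p = 0.989). With the length correction it was 0.35 (edgeR adjusted p = 0.228), within the range of the other 5 ATPases, 0.12 to 0.64. Its FPKM values were lower in both overexpression libraries; the edgeR scale also holds the TMM factors, 1.08 and 1.07 in the control and 0.97 and 0.90 with overexpression, which FPKM does not. Over 82.2% of the PSMC1 mRNA, exons of NRDE2 lie on the opposite strand, and the strand setting of the counting is not given in the sources used here. If strand was not used, reads of the 2 genes cannot be told apart there.

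Non-ATPases of the 19S particle differed less: 4 of 11 were higher without the correction, none was lower, and the class median was 0.35. PSMD4, a ubiquitin receptor with an mRNA of 1350 nt, had the largest difference, from 61.3 and 67.1 FPKM to 103 and 122 FPKM, a 2.02-fold rise (log2 1.02, SE 0.18, edgeR adjusted p = 0.00665). The other 3 were lid subunits: PSMD8 (log2 0.85, edgeR adjusted p = 0.0164), PSMD13 (0.74, edgeR adjusted p = 0.0119) and PSMD14, the deubiquitinase of the lid (0.55, edgeR adjusted p = 0.0292). PSMD2, a scaffold of the base and the highest gene of the class, was at 191 and 209 FPKM in the control and 173 and 184 FPKM with overexpression. Its log2 fold change was 0.04 (SE 0.16, edgeR adjusted p = 0.848), and on a TPM scale, on which length-scaled counts sum to the same total in each library, it was −0.45 (edgeR adjusted p = 0.0415). PSMD11, a lid subunit, was at 31.4 and 31.9 FPKM in the control and 29.5 and 23.9 FPKM with overexpression, with a log2 fold change of −0.04 (SE 0.16, edgeR adjusted p = 0.848).

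PSMD12 (chr17:67337916-67366627, minus strand), a lid subunit with an mRNA of 4406 nt, was the only non-ATPase to pass with the correction. It was at 27.9 and 27.6 FPKM in the control and 32.6 and 28.7 FPKM with overexpression, so its groups were apart by a small margin. Its log2 fold change was 0.35 (SE 0.16, edgeR adjusted p = 0.119) without and 0.68 (SE 0.14, edgeR adjusted p = 0.0314) with the correction. A second annotated coding transcript of PSMD12 has 2437 nt, and no correction was made with that length. With exonic length the difference was 0.47 (edgeR adjusted p = 0.0668). With span and GC added to the 4406 nt it was 0.61 (edgeR adjusted p = 0.00752).

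Of the caps and the inhibitor, none was higher and 1 of 3 was lower on the standard scale, with a median of −0.16. PSME4, the cap known as PA200, was at 18.7 and 19.015 FPKM in the control and 12.4 and 9.86 FPKM with overexpression, both lower. It was the only member called lower on the standard scale (log2 −0.56, SE 0.17, edgeR adjusted p = 0.0345). Its mRNA has 7099 nt, and the corrected value was 0.05 (edgeR adjusted p = 0.860). PSME3 (chr17:42824385-42843758, plus strand), the PA28 gamma cap of the nucleus, was at 43.9 and 45.7 FPKM in the control and 35.3 and 34.5 FPKM with overexpression. Its log2 fold change was −0.16 (SE 0.16, edgeR adjusted p = 0.458) without and −0.98 (SE 0.15, edgeR adjusted p = 0.0131) with the correction. That correction used a principal transcript of 998 nt; with the longest coding transcript, 3366 nt, the difference was −0.08 (edgeR adjusted p = 0.772). PSMF1, an inhibitor that binds the core, was at 26.5 and 28.5 FPKM in the control and 22.7 and 32.3 FPKM with overexpression, and its groups overlapped (log2 0.22, edgeR adjusted p = 0.467).

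Of the assembly chaperones, 4 of 6 tested were higher and none was lower on the standard scale. All 4 chaperones of the core were higher on the standard scale, with a median of 0.77, and neither tested chaperone of the 19S base passed. PSMG3 was at 34.2 and 33.3 FPKM in the control and 60.2 and 73.2 FPKM with overexpression, a 2.29-fold rise (SE 0.19 on the log2 scale, edgeR adjusted p = 0.00517). PSMG1, PSMG2 and PSMG4 had log2 fold changes of 0.79, 0.69 and 0.75. PSMD5, a chaperone of the 19S base with an mRNA of 3443 nt, was at 33.7 and 32.7 FPKM in the control and 22.9 and 20.9 FPKM with overexpression (log2 −0.39, SE 0.16, edgeR adjusted p = 0.0856). PSMD10, also known as gankyrin, was at 26.4 and 25.6 FPKM in the control and at 36.4 and 22.4 FPKM with overexpression, so that the overexpression pair bracketed the controls. PSMD9 was under the filter, at 0.808 and 0.708 FPKM in the control and 0.943 and 0.838 FPKM with overexpression. Exons of AC069503.2 and WDR66 overlap 43.8% of its principal mRNA, and the part of this in its low counts was not tested. No chaperone passed with the mRNA length correction, in which PSMG4 was at −0.16 for a principal transcript of 838 nt. With its longest coding transcript, 4603 nt, PSMG4 was at 1.07 (edgeR adjusted p = 0.0289), and with exonic length at 1.23 (edgeR adjusted p = 0.0149). The difference between core and 19S base chaperones was not tested.

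**Figure D4:**
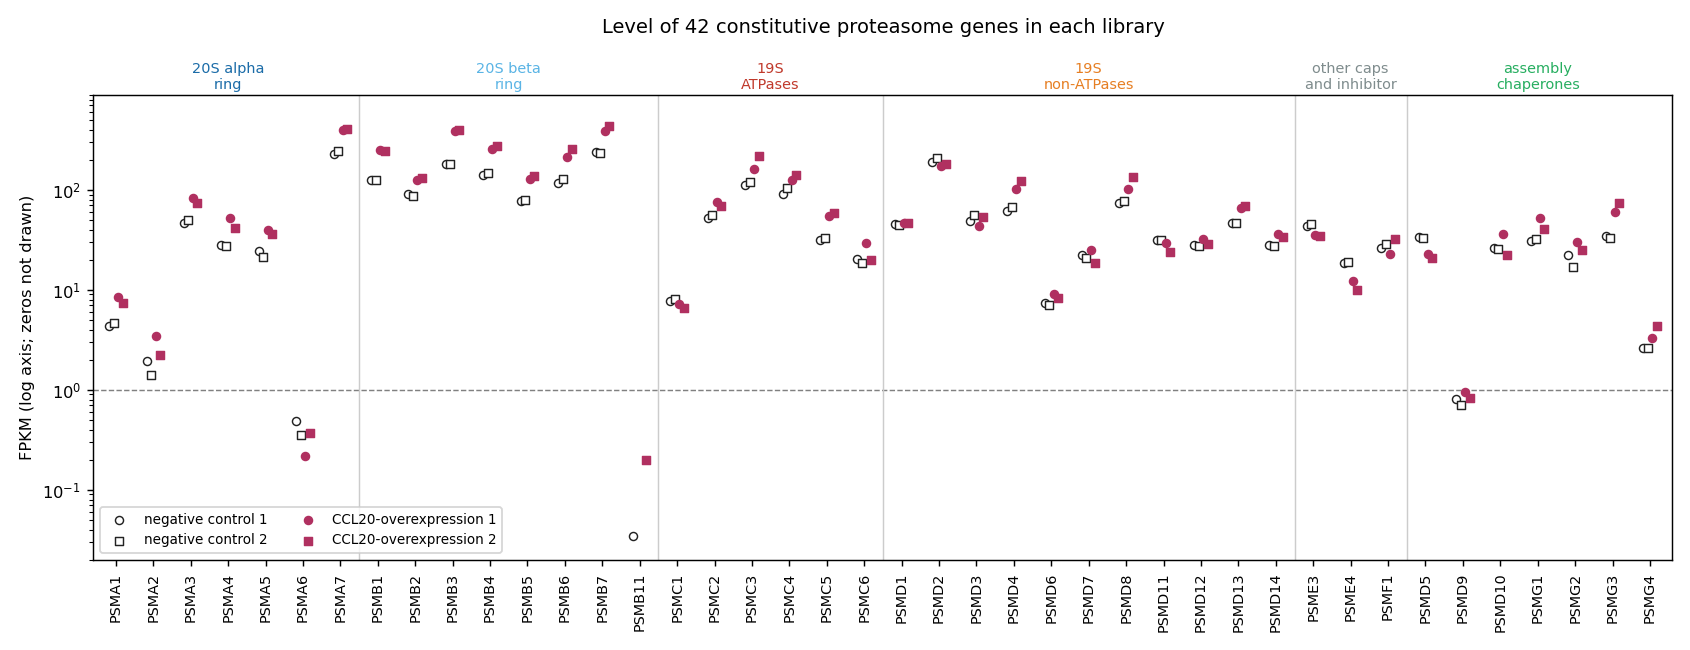
FPKM of each member in each library on a log axis, grouped by class; open symbols are control and filled symbols overexpression libraries, circles replicate 1 and squares replicate 2, and the dashed line is the filter at 1 FPKM (the 2 zeros of PSMB11 are not drawn). Beta ring genes other than PSMB11 lie at 77.6 FPKM or above in all 4 libraries, and PSMA6, PSMB11 and PSMD9 lie under 1 FPKM.

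Measured per kilobase of mRNA, the median of the tested core genes was above that of 19S genes in every library. The median over core genes was 165 and 161 RPKM on the principal mRNA in the control and 268 and 239 with overexpression, and over 19S genes it was 88.8 and 94.3 against 116 and 124. This order held for the beta ring, with medians of 276 and 276 in the control and 578 and 602 with overexpression. Alpha ring medians were 54.15 and 51.71 in the control and 96.41 and 80.27 with overexpression, below the 19S medians in every library. The alpha ring includes PSMA1 and PSMA2, whose mRNAs exons of other genes overlap. Core to 19S ratios were 1.86 and 1.71 in the control and 2.31 and 1.92 with overexpression. These ratios hold no correction for the trend with mRNA length, and median mRNA lengths were 996 nt for the core and 1954 nt for 19S. With the mRNA length correction, core and 19S log2 fold changes had medians of 0.31 and 0.27 above that of all coding genes. The part of length in the ratios was not tested. PSMB7 at 595, PSMA7 at 560, PSMB4 at 461, PSMB1 at 456 and PSMB3 at 438 led the order of means, and PSMD2 at 299 led the 19S genes. Replicates of the control differed by a median of 0.0653 on the log2 scale over the tested members, and replicates of overexpression by 0.203; over all genes tested these were 0.129 and 0.328. The widest overexpression pairs were PSMF1, where replicate 2 was above replicate 1 by 0.617, and PSMD10, where the difference was −0.596.

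Of 32 helper genes, which work with the proteasome, 7 were higher and 4 lower without the correction, with a median of 0.01, where 16.5% and 15.7% of all genes were called. With the correction 2 were higher and 1 lower, where 3.63% and 3.19% of coding genes were called. These counts are near the background. RPS27A, which encodes ubiquitin fused to a ribosomal protein, had a log2 fold change of 1.37 (edgeR adjusted p = 0.00477) without it and 0.47 (edgeR adjusted p = 0.250) with it. NFE2L1, the activator of proteasome genes named above, was at 32.1 and 30.7 FPKM in the control and 14.2 and 13.5 FPKM with overexpression. It was lower on the standard scale (log2 −0.97, SE 0.16, edgeR adjusted p = 0.00552) and not called with the mRNA length correction (−0.58, edgeR adjusted p = 0.0606). It was called lower with the longest coding transcript (−0.64, edgeR adjusted p = 0.0418), with span and GC added (−0.65, edgeR adjusted p = 0.00223) and with exonic length (−0.79, edgeR adjusted p = 0.0165). DDI2, the protease that releases active NFE2L1, was at 5.21 and 4.96 FPKM against 2.25 and 2.43 FPKM (log2 −0.91, edgeR adjusted p = 0.00830; −0.12 with the correction). Of the 4 helpers listed for transcription of proteasome genes, 2 were lower on the standard scale and 2 did not pass. NFE2L2 was among those that did not pass (log2 0.28, edgeR adjusted p = 0.27). Of the 10 members with the antioxidant response element core, PSMA4, PSMB3, PSMC5, PSMG1 and PSMG2 rose on the standard scale and PSME4 fell. PSMD3 (log2 0.10, edgeR adjusted p = 0.711), PSMD5 and PSMD12 did not pass, and PSMD9 was not tested. This is 5 of 9 tested, where 25 of all 39 members rose. The 39 include PSMA7, PSMB1, PSMB6, PSMB7, PSMD4 and PSMG3, which had no promoter entry and all rose. The shares are therefore not over the same set of genes and were not compared. With the mRNA length correction, PSMA4 and PSMD12 were the ones to pass.

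With the mRNA length correction 3 helpers passed. TXNL1, a thioredoxin-like protein bound to the 19S particle, was at 3.992 and 4.004 FPKM in the control and 5.54 and 5.07 FPKM with overexpression (log2 0.90 with the correction, SE 0.15, edgeR adjusted p = 0.0165). PAAF1, which binds 19S ATPases, was at 5.93 and 5.68 FPKM against 6.26 and 6.45 FPKM (0.76, SE 0.17, edgeR adjusted p = 0.0358). MIDN, midnolin, which carries nuclear proteins to the proteasome, was at 25.9 and 25.4 FPKM against 12.3 and 11.9 FPKM (−0.71, SE 0.15, edgeR adjusted p = 0.0313). Principal transcripts of TXNL1 run from 1339 to 6894 nt, and the correction used their median, 4116 nt. On the standard scale TXNL1 (log2 0.61, edgeR adjusted p = 0.0233) and MIDN (−0.88, edgeR adjusted p = 0.00713) were called. PAAF1 was not called there (0.34, edgeR adjusted p = 0.146). The 5 immunoproteasome and PA28 genes left out by the rule were all higher on the standard scale, with a median of 1.14, and none passed with the correction, with a median of 0.35.

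Members are spread over 17 chromosomes, with 7 on chromosome 17 and 6 on chromosome 14. PSMB5 and PSMB11 lie 6937 nt apart on chromosome 14 and on opposite strands. PSMB5 was among the higher members and PSMB11 had at most 7 reads. The median of all genes tested was 0.00 on the standard scale, −0.20 by total count and −0.49 on the TPM scale. These scalings move all genes of a library together, so they do not bear on how classes differ. Above the median of all genes tested, the core median was 0.97 and the 19S median 0.54 on the standard scale; with the mRNA length correction they were 0.31 and 0.27, with span and GC added 0.33 and 0.26, and with the longest coding transcript 0.25 and 0.21. On the TPM scale 9 members passed as higher and 4 as lower; of all genes 41.2% passed there, 4.11% as higher and 37.1% as lower.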

How the data were processed

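Polyadenylated RNA of CAL27 cells was sequenced in 4 libraries, 2 per group, with an input of 1.5 µg (per the labels' protocols). HISAT2 (no version), HTSeq 0.13.5 and GRCh38 are named in the submitters' processing notes; the annotation, the trimming and the use of strand are not given in the sources. The deposited counts are raw whole numbers of reads for 29437 genes. The deposited FPKM values divide each count by gene length and library total. All names matched GENCODE 29, which gave positions and transcript lengths.

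The test was edgeR 4.0.16 (R 4.3.3; quasi-likelihood, TMM factors, two-sided, Benjamini-Hochberg adjustment) over 12168 genes whose FPKM averaged 1 or more. SEs were derived from each F statistic. The length correction fitted a natural spline with 5 degrees of freedom to log2 count deviations against the median length of principal transcripts, per library, over 10571 coding genes. DESeq2 1.42.0, limma 3.58.1, other scalings, filters, lengths and left-out libraries were alternatives. The procedure was tested on simulated data. Named in full are members called with the correction, the largest and smallest difference and highest FPKM of each class, and members under the filter; of the helpers, those called with the correction and the 2 largest changes in each direction without it, of which 1 is not reported here. Other members, and NFE2L2 of the helpers, were named after their values were seen. Members and lists were chosen with earlier results of these data known. Replicates differed beyond sampling noise (chi-square per gene 6.45 in the control pair, 38.0 in the overexpression pair). Intervals and floors cover counting error only.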

Additional observations from a re-analysis of the deposited data

How the results depend on the processing

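The 26 members past the threshold became 13 on the TPM scale, 6 with the mRNA length correction and 14 at an adjusted p under 0.01, and between 2 and 33 when a library was left out. Calls over all genes, 3915, became 1932 with an exonic length correction, 721 with the mRNA length correction and 1320 at the stricter threshold, and 650 to 7579 with a library left out. The 11 helper genes became 3 and 7 under the last 2 settings, and 2 to 21 with a library left out. By total count, 19 members were higher and 2 lower, and 1275 genes were higher and 2963 lower. On the TPM scale, 500 genes were higher and 4516 lower. With the mRNA length correction, the 6 members became 19 with exonic length and 20 with gene span and GC added, and 0 to 23 with a library left out; where a group keeps 1 library, its spread is assumed to be that of the other group. The log2 fold change of CCL20 was 0.47 on the TPM scale, 0.49 with exonic length, 0.06 with mRNA length, 0.0046 with span and GC, 0.01 with the longest coding transcript and 0.14 with the shortest principal one, and 0.78 to 1.12 with a library left out. The cause was not tested.

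The log2 fold changes of single members that changed sign were as follows. By total count they were −0.20 for PSMC1, −0.16 for PSMD2 and −0.11 for PSMD3. On the TPM scale they were −0.49 for PSMC1, −0.25 for PSMD1, −0.45 for PSMD2, −0.41 for PSMD3, −0.03 for PSMD6, −0.28 for PSMD7, −0.14 for PSMD12, −0.30 for PSMF1 and −0.10 for PSMD10. At a mean FPKM of at least 5 they were −0.10 for PSMC1, −0.06 for PSMD2 and −0.01 for PSMD3. By limma on log2(FPKM + 1) they were −0.18 for PSMC1, −0.16 for PSMD2, −0.12 for PSMD3, −0.01 for PSMD7 and −0.02 for PSMF1; with a pseudocount of 0.1 PSMC1 was at −0.20 and the other 4 were as with 1. With exonic length they were −0.17 for PSMD7, 0.26 for PSMD11 and −0.03 for PSMD10. With mRNA length they were −0.14 for PSMD3, −0.14 for PSMD6, −0.27 for PSMD7, 0.09 for PSMD11, 0.05 for PSME4, −0.16 for PSMD10 and −0.16 for PSMG4. With span and GC added they were −0.13 for PSMD3, −0.18 for PSMD6, −0.37 for PSMD7, 0.08 for PSMD11, 0.10 for PSME4 and −0.29 for PSMD10. With the longest coding transcript they were −0.0074 for PSMA3, −0.26 for PSMD3, −0.22 for PSMD6, −0.38 for PSMD7, 0.17 for PSMD11, 0.0017 for PSME4 and −0.27 for PSMD10. With the shortest principal transcript they were −0.08 for PSMD3, −0.06 for PSMD6, −0.19 for PSMD7, 0.06 for PSME4, −0.08 for PSMD10 and −0.07 for PSMG4. PSMD11 was at 0.0064 without a filter and 0.0018 by DESeq2. With a library left out, PSMC1 ranged from −0.02 to 0.03, PSMD2 from −0.05 to 0.13, PSMD3 from −0.12 to 0.29, PSMD11 from −0.15 to 0.06 and PSMF1 from −0.12 to 0.48.

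Libraries share replicate numbers, and the labels do not say that a number pairs them. The deviations of replicates 1 from their group means correlated at 0.328 over 12168 genes and 0.608 over the 2335 genes that averaged 20 FPKM or more. With the replicate number as a block, 28 members, 5758 genes and 15 helpers passed, and with the block and the mRNA length correction 10 members, 2067 genes and 11 helpers; CCL20 was then at 0.04. In that fit PSMD3 was at −0.15, PSMD6 at −0.14, PSMD7 at −0.29, PSMD11 at 0.08, PSME4 at 0.05, PSMD10 at −0.20 and PSMG4 at −0.16.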
